A study of Mus musculus with 2 samples.

Results

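The 6 genes described here, Cd38, Bst1, Nampt, Nadk, Parp1 and Sirt1, make, modify or consume nicotinamide adenine dinucleotide (NAD). They were taken by gene name from the 22562 genes with a matched symbol on the array, and 12406 of those genes were measured on both arrays. They were chosen by their roles and selected on the log2 difference of processed signal between the 2 arrays, which was already known, so their values are a description and no test was made on them. The c-Maf-/- sample was a culture of mouse bone marrow-derived macrophages without c-Maf, and the c-Maf+/- sample was a like culture with 1 functional copy. Both cultures were grown for 5 days with M-CSF, which drives marrow progenitors to become macrophages and came here from CMG14-12 culture medium. Both then received 100 ng/ml lipopolysaccharide (LPS), the cell wall component of bacteria sensed by Toll-like receptor 4, for 5 h. No unstimulated and no wild-type culture is among the 2 samples. Mouse strain, age, sex and the deleted part of the gene are not given in the labels. With a single one-colour array for each genotype there was no replicate, a test could not be made, and a difference always means one between these 2 hybridised samples.

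NAD carries electrons in metabolism and is also a substrate that several enzymes break down. CD38 is a surface enzyme that splits NAD into nicotinamide and ADP-ribose and makes the calcium messenger cyclic ADP-ribose, and BST1 (CD157) is its relative, held in the membrane by a lipid anchor. NAMPT is the rate-limiting enzyme that rebuilds NAD from nicotinamide, and NADK adds a phosphate to make NADP. PARP1 uses NAD to build chains of ADP-ribose at DNA breaks, and SIRT1 is a nuclear deacetylase that consumes NAD. In macrophages CD38 is known as a gene induced by LPS.

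The 6 genes were read by 8 probes, each spotted once per array, 2 for Bst1, 2 for Nadk and 1 for each of the others. Every probe was 60 bases long. The first 30 bases of the probes of Cd38 and Bst1 are shown because these neighbouring relatives carry the 2 largest differences among the 6 genes, and in Cd38 the value rests on a single probe. Coordinates follow build mm9, as deposited, and positions in a transcript count from its first base. The Cd38 probe lies at chr5:44302865-44302924 and starts at base 2246 of the transcript. The Bst1 probes lie at chr5:44233465-44233524, starting at base 1093, and at chr5:44234491-44234550, starting at base 2119. No exon or UTR annotation of this build was used here. The longest run of bases that the Cd38 probe shared with either Bst1 probe, on either strand, was 6.
Cd38 probe: ctacacatgtactttaggattctaggtttc
Bst1 probe at base 1093: aaccagacggtaatccagttgtatttacac
Bst1 probe at base 2119: gaataaaagaaaataaccccaaggagagtg

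Cd38 had the largest difference of the 6 genes. Its processed signal, which is the background-subtracted brightness of the spot, was 1509 for c-Maf-/- against 460 for c-Maf+/-. After each array was scaled by its 75th percentile, Cd38 was 3.23-fold higher in c-Maf-/- macrophages, a log2 difference of 1.69. The 2 spots had pixel means of 1468 in c-Maf-/- against 472 in c-Maf+/- over a local background of 19 on each array, so both lay far above background. The error that the scanner software assigned to the 2 signals gave an error of 0.20 for the difference on the log2 scale. This error had the same size for every probe of the 6 genes, and it does not cover cultures or mice. Over 227 probes with at least 8 usable spots, the SD of the difference between spots had a median of 0.069 and a 95th percentile of 0.36. The 123 detected spots within 10 rows and columns of the Cd38 spot had a median difference of -0.01 and ranged from -0.83 to 2.63.

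Bst1 was higher in c-Maf-/- macrophages on both of its probes, by less than 2-fold. The probe nearer the start of the transcript gave 18750 for c-Maf-/- against 12142 for c-Maf+/-, a log2 difference of 0.60. The other probe had signals of 4229 in c-Maf-/- against 2442 in c-Maf+/-, a log2 difference of 0.77. Averaged over both probes, Bst1 was 1.61-fold higher, a log2 difference of 0.68 ± 0.12 (SD over 2 probes). Both probes of Bst1 lay between the values of Nadk and Cd38.

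**Figure D1:**
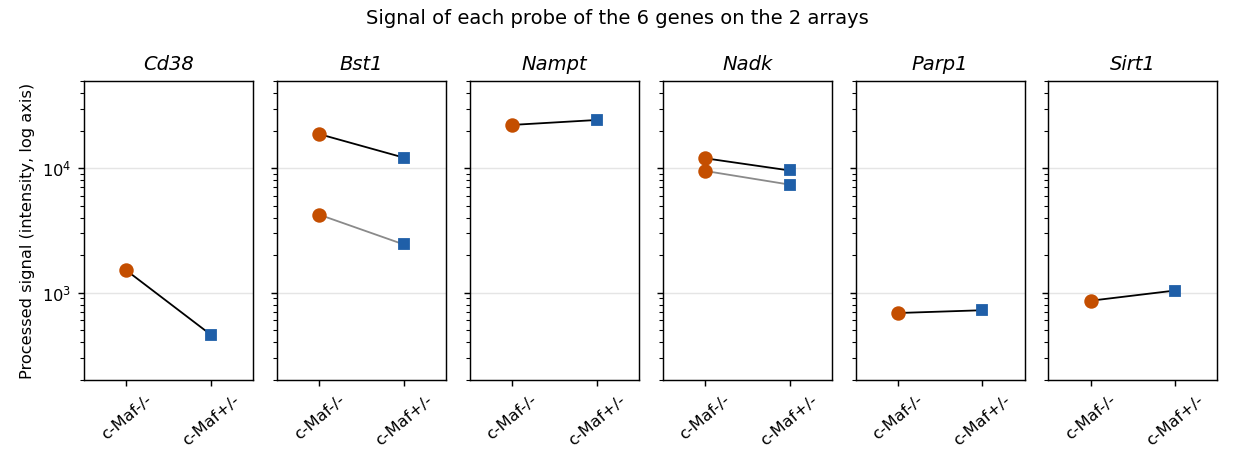
Processed signal (intensity, log axis) of each probe of the 6 genes for c-Maf-/- (circles, left) and c-Maf+/- (squares, right), 1 array per genotype, with a line joining the values of 1 probe and no error bars. The line of Cd38 is the steepest, with signals of 1509 and 460, both Bst1 lines and both Nadk lines slope the same way, and the lines of Nampt, Parp1 and Sirt1 tilt slightly the other way.

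Nadk, the cytosolic NAD kinase, was slightly higher in c-Maf-/- macrophages. Its probe at base 1780 of the transcript (chr4:154963854-154963913) gave 12003 in c-Maf-/- against 9581 in c-Maf+/-, and its probe at base 2971 (chr4:154965045-154965104) had 9498 in c-Maf-/- and 7377 in c-Maf+/-. Both probes gave nearly the same log2 difference, 0.30 and 0.34. Their mean of 0.32 ± 0.03 (SD over 2 probes) is 1.25-fold.

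The other 3 genes had values below 0. Nampt, the salvage enzyme, had signals of 22222 in c-Maf-/- against 24341 in c-Maf+/-, a log2 difference of -0.16, on its probe at chr12:33535475-33535534. Sirt1 had signals of 863 in c-Maf-/- against 1042 in c-Maf+/-, a log2 difference of -0.30, on its probe at chr10:62781827-62781886. Parp1 had signals of 688 in c-Maf-/- against 724 in c-Maf+/-, a log2 difference of -0.10. Its 60-base probe covers 299 bases of the genome (chr1:182530341-182530639), so it is split over parts of the gene that are not adjacent. With 1 probe each, these 3 genes have no spread between probes. Genes with at least 2 probes had a median SD of 0.09 between their probes, with a 95th percentile of 0.48. All 3 differences, that of Sirt1 included, were smaller in size than that percentile. The scanner software's error of the difference was 0.20 for each of the 3. Nampt and Parp1 lay within that error, which had the same size for every probe of the 6 genes and was not measured from replicate spots.

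Each of the 8 probes carried the flag for a signal well above background in both genotypes, so no probe fell outside the rule. The dimmest value was the 460 of Cd38 on the c-Maf+/- array, where the lowest signal so flagged was 22.3. Of the 6 genes, Cd38 alone was 2-fold or more higher in c-Maf-/- macrophages, as were 1.42% of the 12406 genes, and 0 were 2-fold or more lower, as were 1.73%. At 1.5-fold, 2 of the 6 were higher (Cd38 and Bst1), where 5.37% of all genes were, and 0 were lower, where 6.52% were. Nothing is read from these counts, since the same contrast was used to choose the genes. The 6 genes had a median difference of 0.11 against -0.02 over all genes, with 3 values above 0, where 46.3% of all genes lay, and 3 below. Among the 5449 genes with a mean level at or above that of Cd38, 0.569% were 2-fold or more higher.

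**Figure D2:**
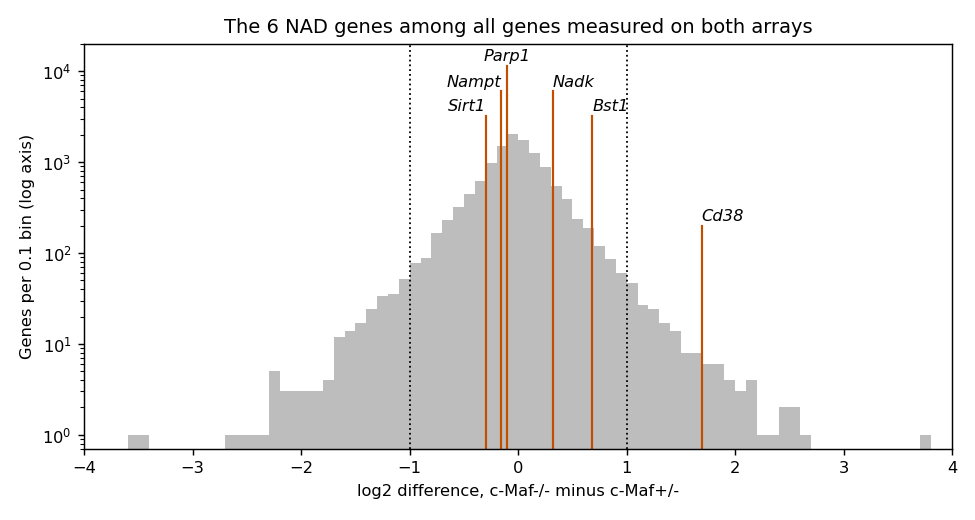
Histogram of the log2 difference, c-Maf-/- minus c-Maf+/-, of the 12406 genes measured on both arrays (number of genes per bin on a log axis), with vertical lines at the 6 genes and dotted lines at 2-fold. Cd38 at 1.69 stands in the right tail, and Bst1 at 0.68 lies on its shoulder. Nadk at 0.32 and Sirt1 at -0.30 lie about equally far from 0 on opposite sides, and Nampt and Parp1 stand closer to 0.

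Among all 12406 genes Cd38 ranked 33 from the top of the log2 differences, Bst1 472 and Nadk 1692. Sirt1 ranked 2196 from the bottom. The 4 genes with an official symbol whose difference was nearest to that of Cd38 were Bcar1 (1.69), an adaptor protein of integrin signalling, B4galnt2 (1.68), a glycosyltransferase, F3 (1.68), tissue factor of the clotting cascade, and Radx (1.73). The likeness is only the size of 1 difference over 2 samples, within 0.04 on the log2 scale for each of the 4. F3 had signals of 1181 in c-Maf-/- against 361.9 in c-Maf+/-. Bcar1 was dim, with signals of 152.5 in c-Maf-/- against 46.4 in c-Maf+/-.

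Maf, the targeted gene, checks the labels. Its probe at chr8:118227736-118227795 had a signal of 12.6 in c-Maf-/-, not well above background, and 15101 in c-Maf+/-, at least 636-fold lower in c-Maf-/-. Its probe at chr8:118207273-118207332 had signals of 5.96 in c-Maf-/- against 541 in c-Maf+/-, at least 22.8-fold lower. These bounds set the c-Maf+/- signal against 24.2, the lowest c-Maf-/- signal that carried this flag. Whether the probes lie inside the deleted part is not known. Detection was alike in both genotypes, at 44.9% of spots other than controls in c-Maf-/- against 45.3% in c-Maf+/-. Saturation was found at 0 spots.

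Cd38 and Bst1 are neighbours on chromosome 5, and the Bst1 probes lie at -69.4 and -68.4 kb from the Cd38 probe, where a negative distance is a lower coordinate. A window of 500 kb on each side of the Cd38 probe, set after the values of both genes were known, held 21 probes, of which 12 were well above background on both arrays. The 9 of these that read neither Cd38 nor Bst1 ranged from -1.37 to 2.61 in log2 difference, 5 above 0 and 4 below. Prom1, the gene next beyond Cd38 with a detected probe, was at -0.42, with signals of 63.1 in c-Maf-/- against 82.7 in c-Maf+/-. Tapt1, farther on the same side, was at 0.48. On the Bst1 side, Fbxl5, which encodes an iron-sensing part of a ubiquitin ligase, had 1 bright probe at 0.44 and 1 dim probe at -0.03, and Cc2d2a was at 0.13. The genes next to the pair did not share 1 direction.

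Between Fbxl5 and Bst1, at -127 kb, 3 probes read a transcribed region that the files name only by its coordinates. One gave 259 in c-Maf-/- against 41.7 in c-Maf+/-, a log2 difference of 2.61. The second, with 52.9 in c-Maf+/-, had a difference of 0.99. The third, at 32.7 in c-Maf-/- and 24.5 in c-Maf+/-, was detected in c-Maf-/- only. All 3 were brighter on the c-Maf-/- array, but they did not give 1 size. A probe without a gene name, at -158 kb, had a difference of -1.37.

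**Figure D3:**
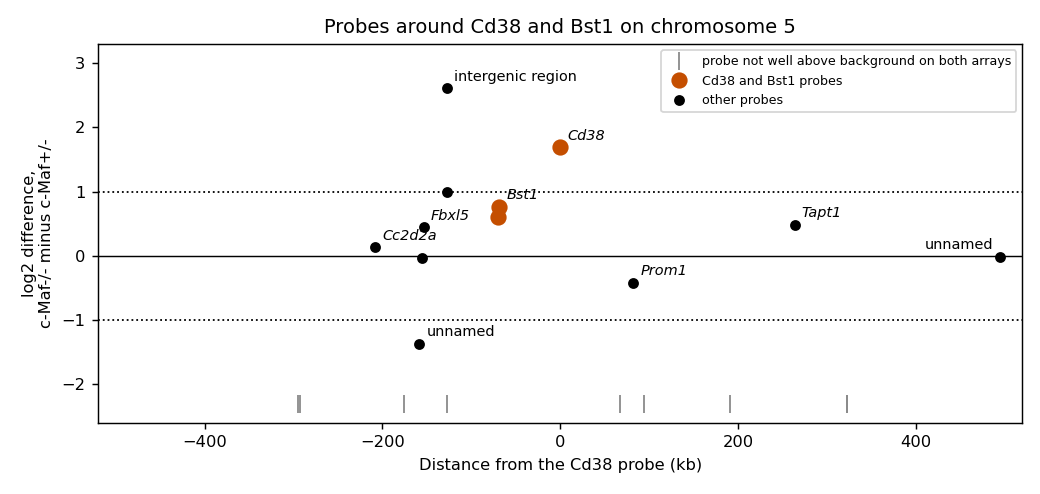
Log2 difference, c-Maf-/- minus c-Maf+/-, of each probe against its distance from the Cd38 probe in kb, with ticks for probes not well above background on both arrays and dotted lines at 2-fold. Cd38 (1.69) and both Bst1 probes (0.60 and 0.77) stand between a Prom1 probe at -0.42 and Fbxl5 probes at 0.44 and -0.03, and a probe of an intergenic region stands highest at 2.61.

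Since c-Maf binds DNA at Maf recognition elements, the 250 bases before the start of Cd38 are shown, with the letters searched. The sequence is that of RefSeq, build GRCm38.p6, plus strand, chr5:43868559-43868808. Of the 6 genes, 5 matched the promoter table, and Bst1 did not.
Cd38 promoter: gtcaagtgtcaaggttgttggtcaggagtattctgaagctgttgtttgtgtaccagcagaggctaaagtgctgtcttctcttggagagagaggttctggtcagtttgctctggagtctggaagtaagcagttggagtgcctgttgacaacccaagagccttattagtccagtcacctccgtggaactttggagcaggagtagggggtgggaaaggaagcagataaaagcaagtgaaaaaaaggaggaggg

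No letter stands in capitals because none of 4 motifs searched on both strands was found in this window. The motifs were the half-site of the Maf recognition element (TGCTGAC), held by 4.31% of 27025 genes in a window of the same length, the AP-1 site (TGACTCA, 5.16%), the C/EBP site (TTGCNNAA, 10.8%) and the PU.1 core (GAGGAA, 25.9%). The last of these was found once in each of the 2 windows of Nadk, and no motif was found in those of Nampt, Parp1 or Sirt1. A missing match says only that these letters are not in this window.

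The wider pathway was described with 12 lists of genes around the 6. Most hold genes that make, use or break down NAD, NADP or their products. The lists also took in macrophage activation genes described together with Cd38, which share no such role, and subunits of the phagocyte NADPH oxidase. Besides the 6 they held 86 genes, 60 of which were measured on both arrays. Of these 60, 1 was 2-fold or more higher in c-Maf-/- and 0 were 2-fold or more lower, which is 1.67% where 3.15% of all genes passed 2-fold in either direction. Their median was -0.03. The share was thus no larger than among all genes.

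NAD can be made from tryptophan, from nicotinic acid or from salvaged nicotinamide. Of 11 genes of the tryptophan and nicotinic acid routes, 5 were measured on both arrays, with a median of -0.17. Kmo, the kynurenine hydroxylase of the tryptophan route, was farthest from 0, with mean signals of 152 in c-Maf-/- against 281 in c-Maf+/- and a log2 difference of -0.96 over 2 probes (-1.04 and -0.87). Afmid, which acts one step before Kmo, was at 0.27 with signals of 35.6 in c-Maf-/- against 29.1 in c-Maf+/-, and Haao, a later enzyme of the route, was at -0.19. Ido1, Ido2, Tdo2, Qprt and Acmsd were not well above background on either array, among them the enzymes that open the tryptophan ring and the one that feeds the route into NAD. Naprt (-0.17) and Nadsyn1 (0.05), which serve the nicotinic acid route, lay near 0.

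Beside Nampt, 5 of 8 other salvage genes were measured, with a median of -0.08 and 0 past 2-fold. Nmrk1, the nicotinamide riboside kinase, was at 0.57, with signals of 119 in c-Maf-/- against 78.7 in c-Maf+/-. Nmnat3, the mitochondrial member of the enzymes that complete NAD, was at 0.32, and Nmnat1, the nuclear one, at -0.20. Nnmt, which methylates nicotinamide for removal, was not well above background on either array. Aox1, which oxidises the methylated product, was well above background only in c-Maf-/-, at 33.8 against 5.06 in c-Maf+/-, at least 1.49-fold higher.

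In the step from NAD to NADP, Nadk2, the mitochondrial kinase, had a larger difference than Nadk. It was at 0.94, just under 2-fold, with signals of 226 in c-Maf-/- against 116 in c-Maf+/-. That value was 0.66 with normexp background correction and 1.08 with spike-in scaling, so its side of 2-fold depends on the scaling. Slc25a51, the mitochondrial NAD carrier, was at 0.18 over 2 probes and the transhydrogenase gene Nnt at -0.08, near the median of all genes. Of 6 enzymes that recharge NADPH, 5 had a value above 0, where 46.3% of all genes did, with a median of 0.18 against -0.02 over all genes. The farthest above 0 were Pgd (0.40), Me2 (0.29) and G6pdx (0.21). Subunits of the phagocyte oxidase that spends NADPH had a median of 0.17, likewise with 5 of 6 above 0, and with Ncf4 at 0.30 and Cybb at 0.23 among them. None of these 12 genes passed 2-fold, and these counts were not tested.

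Other enzymes that split NAD, or handle what CD38 releases, were mostly dark on these arrays. Of 11 such genes besides Cd38 and Bst1, only Art3, an ADP-ribosyltransferase relative, was measured on both, at -0.51 over 2 probes. Enpp1, an ectonucleotidase that can cut NAD and ADP-ribose, was well above background only in c-Maf+/-, with 11.1 in c-Maf-/- and 37.2 in c-Maf+/-, at least 1.54-fold lower in c-Maf-/-. Entpd1, which removes phosphates from extracellular ATP, was likewise at 21.9 in c-Maf-/- and 42.1 in c-Maf+/-, at least 1.77-fold lower. Sarm1, Enpp3, Nt5e and the remaining 5 ADP-ribosyltransferase genes were not well above background on either array. Among 6 calcium channel genes that answer CD38 products, Tpcn1 (-0.21) was measured on both arrays, Tpcn2 was at 13.6 in c-Maf-/- and 37.5 in c-Maf+/-, well above background in c-Maf+/- only, which makes it lower in c-Maf-/- by at least 1.58-fold, and the 3 ryanodine receptor genes were dark on both. The 2 arrays detected different probes of Trpm2, the ADP-ribose-gated channel, so it has no difference.

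All 16 genes of the PARP family were measured, and 13 of them had a value below 0, where 53.7% of all genes did. Their median was -0.23, against -0.02 over all genes, and it was -0.09 with spike-in scaling, where all genes had a median of 0.12. Tiparp, which acts downstream of the aryl hydrocarbon receptor, was lowest, with mean signals of 5538 in c-Maf-/- against 9243 in c-Maf+/- and a log2 difference of -0.76 over 2 probes. Parp9 (-0.56 over 2 probes) and Parp14 (-0.50), both known as interferon-induced genes, came next, and Parp1 at -0.10 lay closer to 0 than most of the family. Parp16, an enzyme of the endoplasmic reticulum, was the 1 gene past 2-fold, at 1.03 on 1 detected probe, with 111 in c-Maf-/- and 53.6 in c-Maf+/-. It lay within 2-fold with normexp background correction (0.56), without background subtraction (0.68) and without the filter on dim probes (0.88).

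Enzymes that remove ADP-ribose, with the PARP1 partner gene Xrcc1 (0.07), had a median of -0.03 over 8 genes (0.12 with spike-in scaling, as over all genes), 0 past 2-fold. Nudt9, which breaks down free ADP-ribose, was at -0.46 over 2 probes, Adprhl2, which removes ADP-ribose from serine, at 0.33, and Macrod2, dim on both arrays, at -0.31. Sirtuins other than Sirt1 lay close to 0, from -0.04 for Sirt2 to 0.12 for Sirt4, with a median of 0.01 over 6 genes. Sirt1 (-0.30) had the largest difference of the 7 sirtuin genes, and Sirt3, the main mitochondrial deacetylase, was at 0.04.

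**Figure D4:**
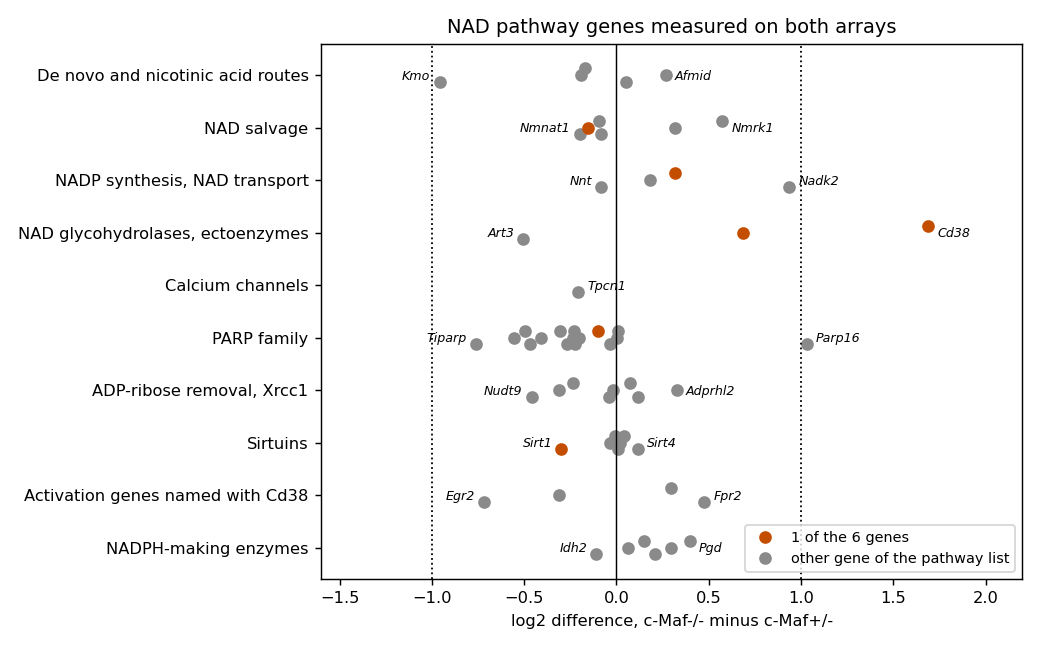
Log2 difference, c-Maf-/- minus c-Maf+/-, of the list genes measured on both arrays, leaving out the oxidase subunits. Each row is 1 list, with the activation genes described together with Cd38 among them, and each point is 1 gene. The 6 genes are in orange and the others in grey, with dotted lines at 2-fold. Only Cd38 (1.69) and Parp16 (1.03) lie past 2-fold, Nadk2 (0.94) and Kmo (-0.96) lie just inside it, and most of the PARP family lies left of 0.

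Gpr18 and Fpr2 are known to rise with Cd38 in macrophages activated by LPS and interferon gamma, and Egr2 and Myc in those treated with interleukin-4. Fpr2, a formyl peptide receptor, had signals of 17370 in c-Maf-/- against 12280 in c-Maf+/-, a log2 difference of 0.48, and Gpr18 was at 0.29. Egr2 had signals of 206 in c-Maf-/- against 332 in c-Maf+/-, a difference of -0.72, and Myc was at -0.31. None of the 4 passed 2-fold.

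Markers of the cells in the culture were read beside these values. All 12 macrophage markers were well above background on both arrays, as the label implies, with a median of -0.0026 and summed signals, each gene averaged over all its probes, of 375000 in c-Maf-/- against 342000 in c-Maf+/-. Cebpa, a myeloid transcription factor, was the 1 past 2-fold (1.11, but 0.76 with normexp), and Aif1 (-0.61), Tlr4 (-0.61) and Lyz2 (0.58) came next. In such a mixed culture, more cells of a type and more RNA per cell cannot be told apart.

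B and plasma cells also carry CD38. Of their 8 markers, 4 were measured on both arrays, with summed signals over the 8 of 1340 in c-Maf-/- against 628 in c-Maf+/-. Sdc1, a plasma cell and macrophage surface protein, was 2.31-fold higher, with 921 in c-Maf-/- and 391 in c-Maf+/-. This gene alone made up most of both sums. Jchain, which joins secreted antibodies, was at 172 in c-Maf-/- and 7.91 in c-Maf+/-, well above background in c-Maf-/- only and at least 7.58-fold higher. The B cell markers Ms4a1 and Pax5 were not well above background on either array, and Cd79b was at 0.52, Cd79a at -0.33 and Cd22 at -0.32. Cd79a came to -0.10 with normexp and to 0.16 without the filter on dim probes. The part of plasma cells in the Cd38 value was not tested. Of 8 T and NK cell markers, 3 were measured, with Lck at -0.94, Cd3e at 0.19 and Nkg7 at -0.07, and with summed signals of 2990 in c-Maf-/- against 3570 in c-Maf+/-.

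Neutrophils and stromal cells carry BST1, and the medians of their markers were below 0, where Bst1 was above it. Of 12 neutrophil markers 10 were measured, 9 below 0, with a median of -0.82 and summed signals of 55800 in c-Maf-/- against 100000 in c-Maf+/-. Most of each sum came from S100a9, at 34670 in c-Maf-/- and 68500 in c-Maf+/-, and S100a8, at 16300 in c-Maf-/- and 24690 in c-Maf+/-. Ngp (-1.45), Ltf (-1.41), Prtn3 (-1.31), Mpo (-1.21) and S100a9 (-1.01) were at least 2-fold lower in c-Maf-/-, and Retnlg and Cxcr2 were not well above background. Prtn3 and Mpo were each past 2-fold under 8 of 10 other settings (-0.72 and -0.82 with normexp), and S100a9 under 6. For stroma and endothelium, 5 of 9 markers were measured and their median was -0.40, with Dcn at -0.95, Col1a1 at -0.88 and Kdr at -0.40, and with summed signals of 4830 in c-Maf-/- against 4910 in c-Maf+/-. Kdr is itself that median, and its 2 probes went opposite ways (-0.95 and 0.15), so its direction is not settled. Kdr also made up most of both sums, at 4238 in c-Maf-/- and 4074 in c-Maf+/-, so their likeness rests on this gene. Lum, Pdgfra and Cxcl12 were dark on both arrays. The part of these cells in the Bst1 value was not tested. For dendritic cells the median was -0.89, with 7 of 8 markers measured and Fscn1 (-1.50), Itgax (-1.09) and Bcl11a (-1.06) at least 2-fold lower. The 2 Bcl11a probes gave -1.62 and -0.50, and it was past 2-fold under 5 of 10 other settings. Itgax was past 2-fold under 7 of them (-0.77 with normexp). Flt3, at 0.47, was the 1 marker above 0. Summed signals were 2520 in c-Maf-/- against 3020 in c-Maf+/-. Most of each sum came from Ccr7 (-0.05), at 2058 in c-Maf-/- and 2096 in c-Maf+/-. Of 5 erythroid markers, Hba-a1 (0.83) and Slc4a1 (0.72) were measured, both dim.

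The values of the 6 genes were computed under 10 other settings. Cd38 stayed at least 2-fold higher under each of the 10, from 1.56 with normexp background correction to 1.84 with spike-in scaling. Not every setting could move it. Cd38, Nampt, Parp1 and Sirt1 have 1 probe each, spotted once. Settings on the dim-probe filter, the averaging over probes or outlier spots therefore left their values as they were. Bst1 ranged from 0.60 to 0.83 and stayed under 2-fold. Spike-in scaling moved every gene by the same amount, and so the median of all genes by 0.15. Relative to that median Cd38 was at 1.71 under both scalings, which follows from such a shift and is no separate check. With spike-in scaling Parp1 came to 0.05, above 0 but below the median of all genes there (0.12). Nampt stayed below 0 under each of the 10, at -0.01 with spike-in scaling.

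**Figure D5:**
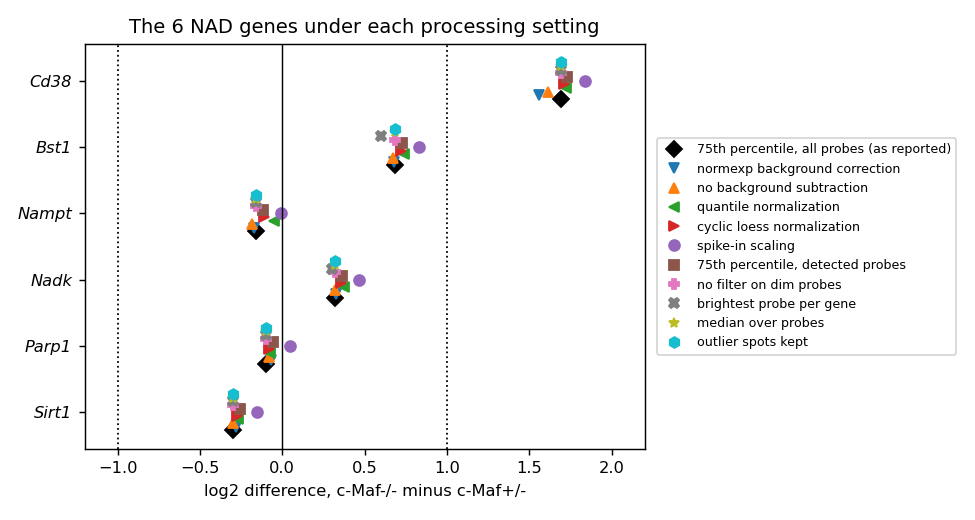
Log2 difference, c-Maf-/- minus c-Maf+/-, of the 6 genes (rows) as reported (black diamonds) and under 10 other settings (coloured symbols, spread vertically for legibility), with dotted lines at 2-fold. Every Cd38 value lies between 1.56 and 1.84, right of the 2-fold line, Bst1 and Nadk stay right of 0, Sirt1 stays left of it, and the Parp1 value with spike-in scaling (0.05) crosses it.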

How the data were processed

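Per the file headers, the authors scanned Agilent design 028005 and extracted each spot's intensity with Feature Extraction 10.7.3.1. The software subtracted background, detrended each array and gave low spots a surrogate value, with no step that set the arrays to each other. The labels' protocols give 50 ng of total RNA per Cy3 labelling. The other deposited columns used were signal errors, mean and background intensities, and 0 or 1 flags.

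The log2 scale was computed here from the deposited linear intensities, minus each array's 75th percentile over 59305 non-control spots (296.2 for c-Maf-/-, 291 for c-Maf+/-). Outlier spots, 149 for c-Maf-/- and 136 for c-Maf+/-, were left out. Each gene was averaged over the probes detected in both genotypes, and signals printed beside a difference are those of the same probes. Where 1 genotype alone detected a gene, a bound is given. Names came from the probe annotation, updated through RefSeq by accession (28020 probes), symbol (3423) or older symbol (295). A further 23943 probes were unmatched. Adprs was looked up under its older symbol Adprhl2, a choice made after it found no match. limma 3.58.1 gave the normexp (offset 50), quantile and loess alternatives.

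Both arrays were on 1 slide, and each genotype has its own position there. The 6 genes and all lists were chosen with earlier results of these data known. Named genes are the 6, Maf, the 4 nearest to Cd38, and list genes past 2-fold or among the 3 farthest from 0 in their list. Other genes named from the lists or near Cd38, and the promoter motifs, were added after values were seen. A few list genes are not reported here.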

Additional observations from a re-analysis of the deposited data

How the results depend on the processing

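With normexp background correction Cd38 was at 1.56, and 68 genes were at least 2-fold higher and 109 lower in c-Maf-/-. The bound for Maf, averaged over its 2 probes, was then -4.97 on the log2 scale, against -6.91 as reported. Without background subtraction Maf was at -5.29 and the counts were 82 and 124. With spike-in scaling Cd38 was at 1.84, Bst1 at 0.83, Nadk at 0.47, Nampt at -0.0105, Parp1 at 0.0467, Sirt1 at -0.15 and Maf at -6.76, with 269 genes higher and 140 lower. Of all calls, 65.8% were then on the higher side, against 45.0% as reported (176 higher, 215 lower). With quantile normalization Nampt was at -0.0485. Without the filter on dim probes Maf was at -8.39 and the counts were 879 and 870. That Maf value is a plain difference that uses c-Maf-/- signals not well above background, where the other Maf values here are bounds. At 1.5-fold they were 666 and 809, and over genes with at least 2 probes, which are fewer, 17 and 32. Nadk came to 0.375 with quantile normalization, 0.359 with loess and 0.361 with the percentile taken over detected probes. These moves were counted as within the spread because the median SD between probes (0.09) was used in place of the smaller SD of Nadk (0.03), a choice made after these values were seen. Some of these counts follow from the setting itself. A 1.5-fold limit must call more genes, genes with at least 2 probes are fewer, and spike-in scaling shifts every gene by the same amount. Without the filter on dim probes 22560 genes entered, against 12406 as reported. The cause of the other changes was not tested. Of 51 named list genes, 5 changed sign under some setting (Cd79a, Kdr, Nkg7, Nnt and Sirt2), as did 7 of 18 list medians. Of 11 past 2-fold, 4 stayed past it under every setting (Ngp, Ltf, Fscn1 and Sdc1). No paired analysis was possible because each genotype has 1 array. The single array per genotype limits every value, and low signals limit the dim genes.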
